A study of Mus musculus with 14 samples.

Results

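The genes described here are 40 genes of mitosis: cyclins and their kinase, mitotic kinases, spindle checkpoint proteins, kinesins, kinetochore and spindle proteins, and proteins of cytokinesis and chromosome structure. They were taken as a list of gene symbols with no rule on measured values, although earlier results of these data were known when the list was drawn up, and all 40 were found among the 28022 genes of the count table. RNA-seq read counts per gene were available for 14 libraries from 7 conditions, with 2 libraries per condition, all labelled as mouse strain C57BL/6J. Fib denotes mouse embryonic fibroblasts, and 2D-iHepSC denotes induced hepatic stem cells that were made from such fibroblasts with lentiviral *Oct4* and *Hnf4α* and kept as a monolayer. 2D-iHepSCiEC denotes the same cells co-cultured on type I collagen with induced endothelial cells (iECs), obtained by expressing *ETV2* in HF1, a human fibroblast line. 3D-iHEA denotes assembloids of iHepSCs with iECs. 3D-iHA, labelled hepatic assembloids, was taken to be the organoids of iHepSCs alone (iHLO) of the study's methods, an assignment that every value of 3D-iHA and every contrast without iECs in 3D rests on. Both were grown as spheroids in a gel of Matrigel and type I collagen. Adult-Liver and Fetal-Liver are whole mouse tissue and hold many cell types. The 4 culture conditions were kept in 1 medium, which contained oncostatin M, basic FGF and human VEGF. Before that, the spheroids of the 3D cultures were formed in a hepatic medium in low-attachment wells, and the gels were later kept on an orbital shaker. Dimension, gel, first medium and shaking therefore differ together between 3D and 2D. The co-culture libraries contain RNA of mouse and human cells, but reads were aligned to the mouse genome only, so a human read counted only where it matched a mouse gene.

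A cell enters mitosis when cyclin B and Cdk1 form an active kinase. Motor proteins of the kinesin family then build a spindle, the checkpoint holds the cell until every kinetochore is attached, and the anaphase-promoting complex destroys cyclin B and securin so that chromosomes separate and the cell divides. Most of these genes are transcribed late in the cycle, in G2 and M phase, and are repressed in resting cells. In liver they are high while hepatic and blood-forming cells divide before birth and low in resting adult hepatocytes.

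Total counts ranged from 20851489 to 35143325 per library, and every one of the 40 genes passed the filter on low counts in both fits, which tested 13409 genes over the 8 culture libraries and 14121 genes over all 14. A chi-square test of counts between the 2 libraries of each condition gave 2.93 to 3.49 per gene in 5 conditions. It gave 10.9 in 3D-iHEA and 12.7 in Fetal-Liver, the 2 conditions that varied most. In no condition was 1 library thus a copy of the other. All labels read replicate 1 and none says whether libraries came from separate cultures or animals, so p-values measure the spread between these libraries, which may be technical. Levels are given as CPM, read counts divided by the library total after scaling by the trimmed mean of M-values (TMM). The TMM factors of these levels were computed over all genes of the table and those of the fitted fold changes over the tested genes, so that a log2 ratio of CPM values differs from the fitted log2 fold change by -0.04 to 0.13, depending on the comparison. The name of 1 of the 3D-iHEA columns carries conflicting library numbers, and that library is called unnumbered. Fibroblast markers were all detected in Fib, at a summed 26426 to 27767 CPM, and hepatocyte markers were all detected in both liver tissues. In the cultures the hepatocyte markers summed to 642 to 1093 CPM and 3 to 9 of 10 exceeded 3 counts, with *Serpina1a* and *Cyp2e1* at 0 in 2D-iHepSCiEC, 3D-iHA and 3D-iHEA. *Ccnb1*, *Ccnb2* and *Kif4* have processed pseudogenes that could take part of their reads, and 6 of the 40 genes share over 10% of their exonic bases with another gene, all on the opposite strand. Whether the counting used strand is not given in the sources used here.

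The share of all counts that fell on the 40 genes was highest in Fetal-Liver and lowest in Adult-Liver. This share was 0.986% and 0.923% in Fetal-Liver, 0.502% and 0.482% in 2D-iHepSC, 0.471% and 0.486% in 2D-iHepSCiEC and 0.225% and 0.218% in Fib. It was 0.0947% and 0.103% in 3D-iHA, 0.0957% and 0.0925% in 3D-iHEA, and 0.0157% and 0.0156% in Adult-Liver. No 2 of the groups Fetal-Liver, 2D culture, Fib, 3D culture and Adult-Liver overlapped in this share, whereas the co-culture libraries lay beside those without iECs. The median level of the 40 genes was 142.7 CPM in Fetal-Liver, 93.9 in 2D-iHepSC, 91.0 in 2D-iHepSCiEC, 36.9 in Fib, 16.8 in 3D-iHA, 15.2 in 3D-iHEA and 6.30 in Adult-Liver. In whole cultures and tissues, fewer cycling cells and less of these RNAs per cell cannot be told apart.

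**Figure D1:**
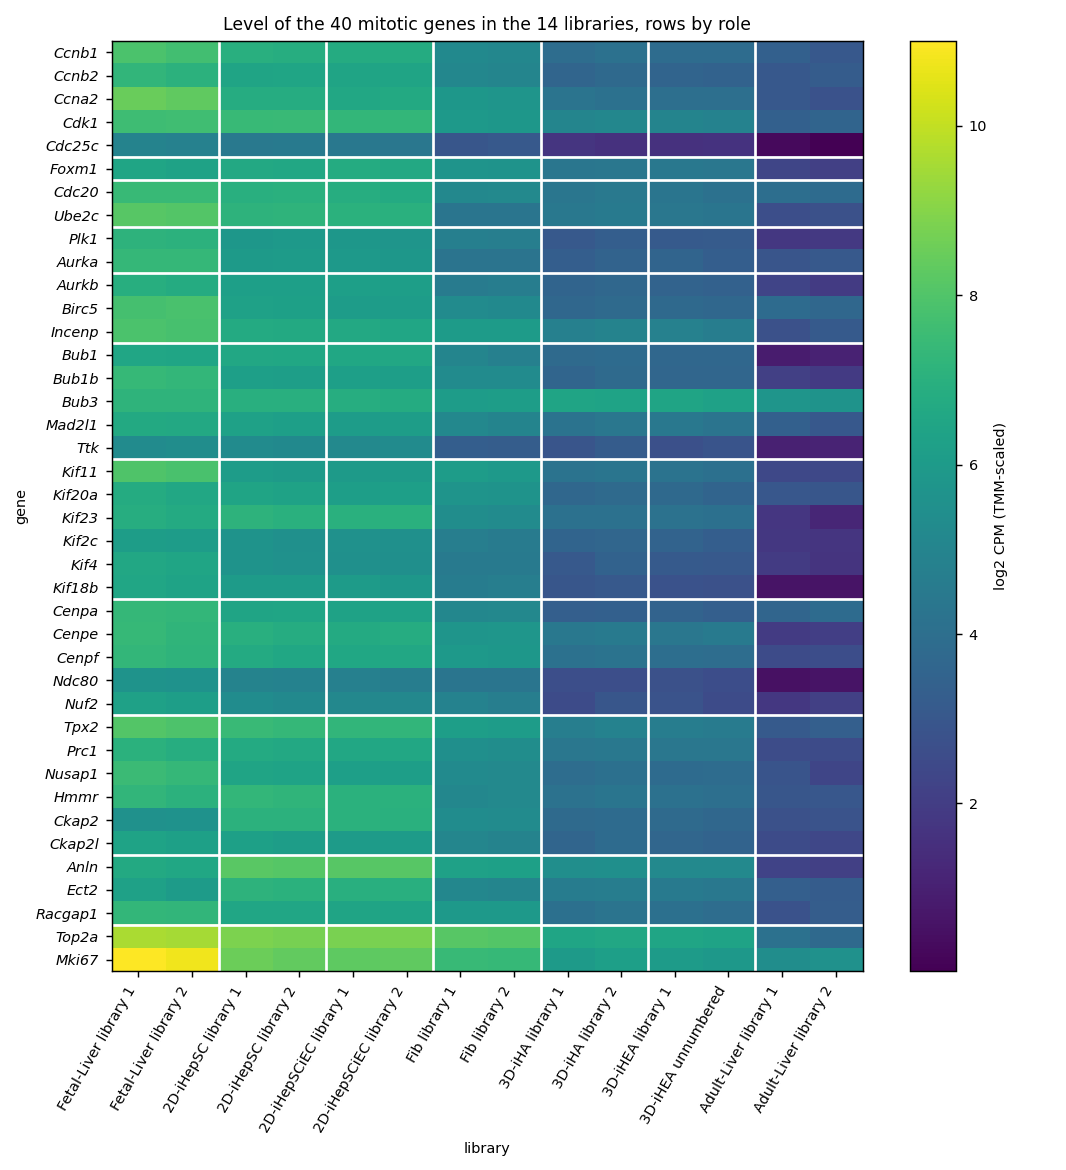
Level of each of the 40 genes (rows, grouped by role with white lines) in each of the 14 libraries (columns, grouped by condition), as log2 CPM scaled by TMM. Colours run from bright in Fetal-Liver through the 2D cultures and Fib to dark in the 3D cultures and Adult-Liver, and the row of Bub3 changes least.

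Whether 3D culture changed the mitotic genes was asked separately without and with iECs, in comparisons that share no library. All 40 genes were lower in 3D-iHA than in 2D-iHepSC, and all 40 were lower in 3D-iHEA than in 2D-iHepSCiEC, by edgeR's quasi-likelihood test with Benjamini-Hochberg adjustment. Of all tested genes, 35.3% were called lower and 72.3% were called in either direction in 3D-iHA, and 34.9% and 70.9% in 3D-iHEA. The 40 genes had a median log2 fold change of -2.47 in 3D-iHA, a 5.52-fold lower level, and -2.43 in 3D-iHEA, a 5.39-fold lower level. Over all tested genes the median was 0.01 in both and the 5th percentile was -1.82 and -1.83. The largest adjusted p among the 40 genes was 1.57e-06 in 3D-iHA and 5.52e-06 in 3D-iHEA. The 2D and 3D libraries overlapped for none of the 40 genes, while for 45.3% of all tested genes both 3D-iHA libraries lay below both 2D-iHepSC libraries and for 43.1% both 3D-iHEA libraries lay below both 2D-iHepSCiEC libraries.

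The strongest decrease in both comparisons was that of *Ckap2*, whose product binds spindle microtubules, with log2 fold changes of -3.21 and -3.24. In 3D-iHA it was followed by *Cenpa*, the histone H3 variant of centromeres, at -3.05, and *Kif18b*, a kinesin that shortens microtubules, at -2.97. In 3D-iHEA it was followed by *Kif18b* at -3.14 and *Hmmr*, a microtubule-binding protein of the spindle poles, at -2.93. The weakest decreases in 3D-iHA were those of *Incenp* and *Kif11*, both at -1.79, and *Bub3* at -0.48. In 3D-iHEA they were those of *Incenp* at -1.81, *Mad2l1* at -1.76 and *Bub3* at -0.43. *Bub3* therefore stood 1.35 to 1.40 times lower in 3D while the other 39 genes were at least 3.38 times lower. Against a required log2 fold change of 0.5 instead of 0, 39 of the 40 genes were still called lower in each comparison.

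**Figure D2:**
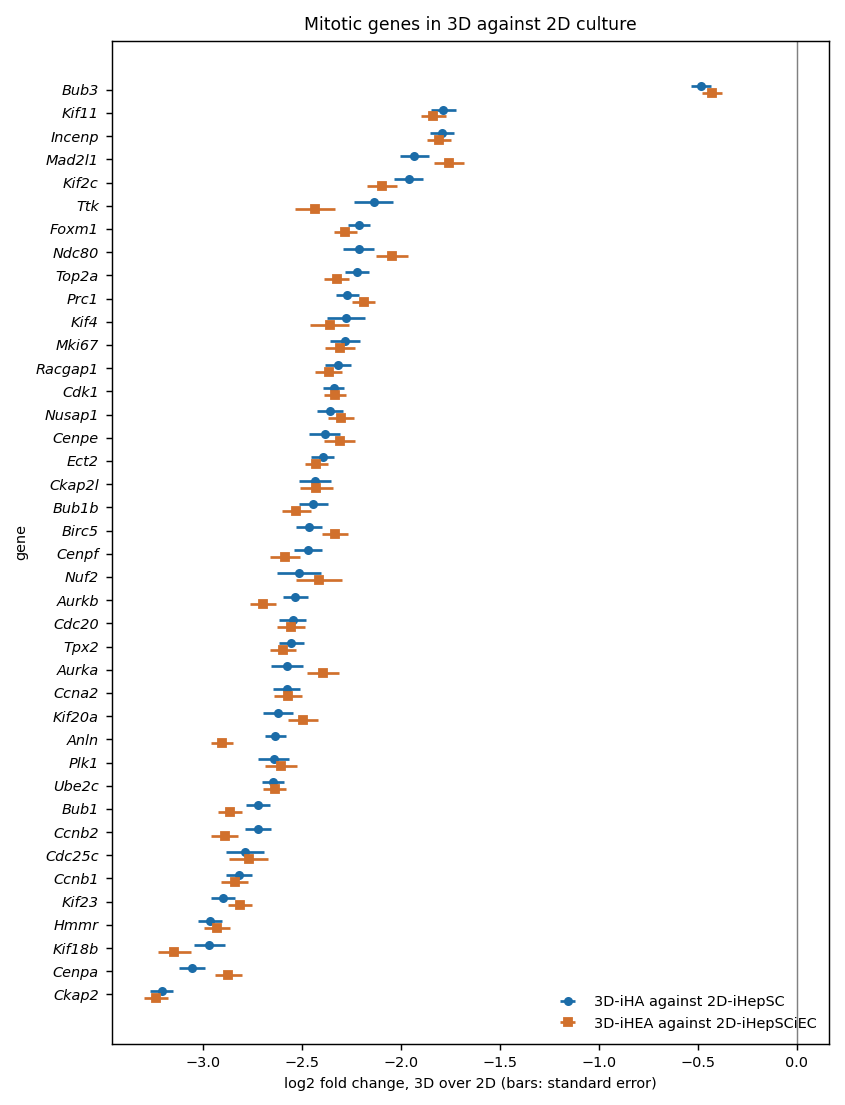
Log2 fold change of each of the 40 genes (rows, ordered by the change in 3D-iHA) between 3D and 2D culture, without iECs (circles) and with iECs (squares), with bars for the standard error of the fit. Every point lies left of 0, between -3.24 and -0.43, and Bub3 lies apart from the other 39 genes.

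Other genes that mark cells also moved between 2D and 3D, and their part in the mitotic changes was not tested. The 8 mouse endothelial markers summed to 482 to 488 CPM in 2D-iHepSC, 413 to 434 in 2D-iHepSCiEC, 1234 to 1370 in 3D-iHA and 873 to 952 in 3D-iHEA. Of these 8 markers, 7 exceeded 3 counts in 2D-iHepSC and 3D-iHA and 6 did in 2D-iHepSCiEC and 3D-iHEA, with *Emcn* at 0 in both co-cultures and *Kdr* at 0 in 3D-iHEA. The 10 hepatocyte markers summed to 693 to 703 CPM in 2D-iHepSC and 642 to 664 in 2D-iHepSCiEC, against 1054 to 1093 in 3D-iHA and 1042 to 1067 in 3D-iHEA. Single markers did not all follow these sums: among endothelial ones the fitted log2 fold change was 5.77 for *Tek* but -1.49 for *Eng* in 3D-iHA, and 6.19 for *Tek* but -1.25 for *Eng* in 3D-iHEA. Among hepatocyte markers it was 5.06 for *Ttr* but -3.34 for *Alb* (adjusted p 0.0102) in 3D-iHA. *Alb* was at 5.85 and 0.283 CPM in 2D-iHepSC and at 0.0917 and 0.499 in 3D-iHA, so the 2 conditions overlapped, and at 0.0771 and 0.083 in 2D-iHepSCiEC and 0.605 and 0.142 in 3D-iHEA. The 4 cholangiocyte markers summed to 1243 to 1335 CPM in 2D-iHepSC and 1189 to 1258 in 3D-iHA, and to 1050 to 1193 in 2D-iHepSCiEC and 1477 to 1478 in 3D-iHEA. Within this list *Epcam* was at 3.94 and *Sox9* at -2.80 in 3D-iHA, and at 4.76 and -0.82 in 3D-iHEA. Fibroblast markers summed to at most 14.4 CPM and erythroid markers to at most 1.34 CPM in any culture library. White blood cell markers summed to 20.9 to 27.7 CPM in the culture libraries. Among the 4 tested ones the log2 fold change ran from -3.45 (*Cd3e*) to -0.07 (*Cd68*) in 3D-iHA, and from -4.18 to 0.02 for the same genes in 3D-iHEA.

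The promoters of many cell cycle genes hold 2 short elements. The cell cycle genes homology region (CHR), with the letters TTTGAA, is bound by complexes that contain MuvB, and CCAAT boxes are bound by the factor NF-Y. RefSeq promoters of GRCm38.p6, reaching 250 bases before and 50 bases after a start site, were found for 33 of the 40 genes. The following stretches are shown because they belong to the genes with the strongest and the weakest changes and to both subunits of the cyclin B kinase. Each is written 5′ to 3′ on the strand of its gene, with capitals for TTTGAA and CCAAT on either strand (TTCAAA and, for the latter, ATTGG mark the opposite strand).
Ckap2, chr8:22185790-22185939, minus strand, 120 bases before to 30 after the start: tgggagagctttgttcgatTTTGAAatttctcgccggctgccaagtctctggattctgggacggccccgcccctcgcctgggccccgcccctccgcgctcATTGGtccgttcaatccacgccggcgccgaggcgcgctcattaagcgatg
Kif18b, chr11:102925095-102925244, minus strand, 120 bases before to 30 after the start: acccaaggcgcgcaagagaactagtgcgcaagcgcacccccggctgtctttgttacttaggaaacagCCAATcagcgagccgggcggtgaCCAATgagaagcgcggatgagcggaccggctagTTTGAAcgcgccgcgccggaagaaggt
Kif11, chr19:37376262-37376411, plus strand, 120 bases before to 30 after the start: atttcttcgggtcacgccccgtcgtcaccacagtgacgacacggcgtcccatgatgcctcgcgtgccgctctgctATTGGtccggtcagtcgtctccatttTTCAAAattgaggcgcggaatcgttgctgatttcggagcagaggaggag
Cdk1, chr10:69352909-69353032, minus strand, 120 bases before to 4 after the start: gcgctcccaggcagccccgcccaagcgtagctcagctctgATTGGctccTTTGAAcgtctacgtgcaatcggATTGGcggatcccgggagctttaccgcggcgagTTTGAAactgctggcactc
Ccnb1, chr13:100786541-100786606, minus strand, from 120 bases before the start: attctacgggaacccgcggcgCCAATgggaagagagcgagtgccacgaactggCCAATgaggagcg
Cenpa, chr5:30666890-30666919, plus strand, centred on the motif: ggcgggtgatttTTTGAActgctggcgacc
Bub3, chr7:131560315-131560344, plus strand, centred on the motif: gagccgttggcgTTCAAAatcagCCAATga

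On either strand the letters TTTGAA were present in the promoters of 26 of the 33 genes, or 78.8%, against 14.3% of tested genes with a promoter and 20.2% of all genes with one. Its first base lay within 50 bases of a start site in 23 of the 33 genes, or 69.7%, against 3.81% of tested genes. CCAAT was present in 26 of 33, or 78.8%, against 43.2% of tested genes, and GCGGGA, a form of the E2F site, in 17 of 33, or 51.5%, against 39.3%. Among 27 genes of the G1/S transition and DNA replication, 5 held TTTGAA, or 18.5%, while 18 held CCAAT and 18 held GCGGGA, or 66.7% each. TTTGAA was also frequent in the other mitotic genes, at 63.6%, and in condensin and cohesin genes, at 50% of 10 genes, and CCAAT was in 80% of 10 inhibitors of cyclin-dependent kinases and arrest genes. In 3D-iHA the 26 genes with TTTGAA had a median log2 fold change of -2.44 and a range of -3.21 to -0.48. The 7 genes without it (*Birc5*, *Bub1*, *Ccnb1*, *Cenpe*, *Mad2l1*, *Nuf2* and *Nusap1*) had a median of -2.46 and a range of -2.82 to -1.93, and the 7 genes without a promoter in the table had a median of -2.55. *Ckap2*, which fell most, holds the letters at position -101, outside the window of 50 bases. *Bub3*, which fell least, holds them at -43 on the opposite strand, from the start site listed first. Variants of the letters were not searched, and the part of the element in the decreases was not tested.

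**Figure D3:**
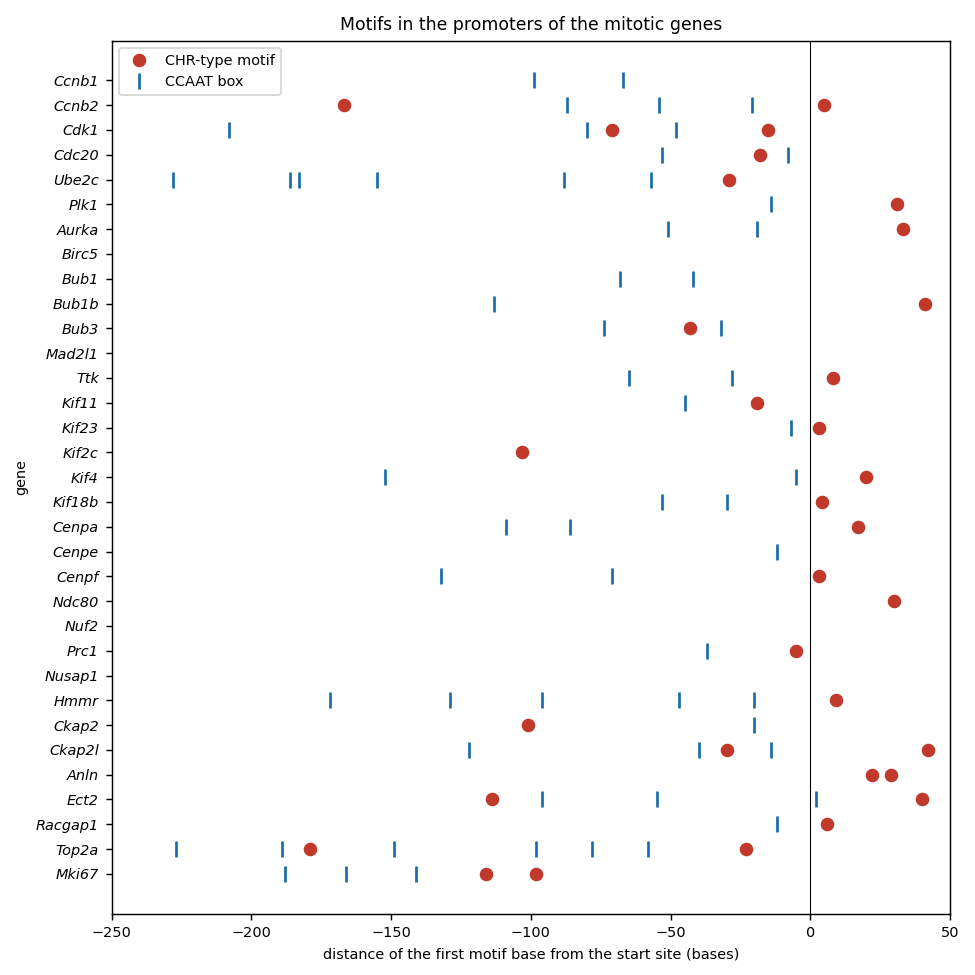
Distance from the start site, in bases, of the first base of each TTTGAA (circles, CHR-type motif) and CCAAT (bars) on either strand, for the start site listed first of each of the 33 genes with a promoter. Most circles lie within 50 bases of the start, and Birc5, Mad2l1, Nuf2 and Nusap1 have neither motif.

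The switch into mitosis is made by *Ccnb1*, *Ccnb2* and *Ccna2*, which encode cyclins B1, B2 and A2, by their kinase *Cdk1*, and by *Cdc25c*, the phosphatase that activates it. *Ccnb1* was at 123 and 115 CPM in 2D-iHepSC, 110 and 109 in 2D-iHepSCiEC, 15.4 and 17.4 in 3D-iHA, and 15.2 and 14.7 in 3D-iHEA. In the other samples it was at 37.2 and 34.8 CPM in Fib, 235 and 206 in Fetal-Liver and 10.5 and 8.30 in Adult-Liver. Its libraries thus formed the descending order Fetal-Liver, 2D, Fib, 3D and Adult-Liver without overlap. *Cdk1* was at 172 and 176 CPM in 2D-iHepSC, 159 and 156 in 2D-iHepSCiEC, 32.2 and 34.7 in 3D-iHA, and 31.4 and 29.6 in 3D-iHEA. It was at 60.3 and 57.2 CPM in Fib, 190 and 197 in Fetal-Liver and 10.5 and 11.8 in Adult-Liver, so that both 2D-iHepSC libraries lay below both fetal libraries by a small margin. All 5 genes of the switch fell in both 3D comparisons, by log2 fold changes of -2.82 to -2.34 in 3D-iHA, where *Ccnb1* was 7.05-fold lower (standard error of the log2 value 0.07) and *Cdk1* 5.06-fold lower (0.05). *Foxm1*, the transcription factor that drives G2 and M phase genes, was at 101 and 95.9 CPM in 2D-iHepSC, 108 and 101 in 2D-iHepSCiEC, 20.4 and 21.01 in 3D-iHA and 21.5 and 20.6 in 3D-iHEA. It was at 51.5 and 50.04 CPM in Fib, 88.6 and 81.6 in Fetal-Liver and 4.91 and 4.31 in Adult-Liver. *Foxm1* fell by a log2 fold change of -2.21 in 3D-iHA and -2.28 in 3D-iHEA, and its level in all 4 2D libraries was above that of fetal tissue.

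Exit from mitosis depends on *Cdc20*, the activator of the anaphase-promoting complex, and *Ube2c*, the ubiquitin-conjugating enzyme that works with it. *Cdc20* was at 123 and 129 CPM in 2D-iHepSC, 117 and 106 in 2D-iHepSCiEC, 20.1 and 21.8 in 3D-iHA, and 19.8 and 17.3 in 3D-iHEA. It was at 35.6 and 36.9 CPM in Fib, 173 and 169 in Fetal-Liver and 16.0 and 14.5 in Adult-Liver. Per kilobase of exon it was the highest of the 40 genes in 2D-iHepSC, at 67.5 CPM per kb, and in Adult-Liver, at 8.16 CPM per kb. *Ube2c* was at 140 and 145 CPM in 2D-iHepSC, 130 and 129 in 2D-iHepSCiEC, 21.4 and 22.8 in 3D-iHA, and 20.97 and 19.7 in 3D-iHEA. It was at 19.8 and 19.4 CPM in Fib, 287 and 268 in Fetal-Liver and 6.35 and 6.65 in Adult-Liver. *Ube2c* fell 6.25-fold in 3D-iHA and 6.22-fold in 3D-iHEA, and its 3D libraries, at 19.7 to 22.8 CPM, lay just beside those of Fib. Of its exonic bases, 22.8% overlap *Tnnc2* on the opposite strand.

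*Plk1*, the polo-like kinase of mitotic entry and spindle poles, was at 56.6 and 61.6 CPM in 2D-iHepSC, 56.8 and 53.9 in 2D-iHepSCiEC, 8.53 and 9.85 in 3D-iHA, and 8.87 and 8.93 in 3D-iHEA. It was at 27.5 and 26.3 CPM in Fib, 141 and 134 in Fetal-Liver and 3.53 and 3.61 in Adult-Liver. Both mitotic kinases fell: *Plk1* by a log2 fold change of -2.64 and *Aurka*, the spindle pole kinase, by -2.57 in 3D-iHA. The chromosomal passenger complex corrects faulty attachments and combines the kinase *Aurkb* with survivin (*Birc5*) and *Incenp*. *Aurkb* was at 73.7 and 74.0 CPM in 2D-iHepSC, 75.0 and 71.6 in 2D-iHepSCiEC, 11.9 and 12.9 in 3D-iHA, and 11.4 and 10.6 in 3D-iHEA. It was at 24.0 and 25.7 CPM in Fib, 119 and 109 in Fetal-Liver and 4.78 and 3.80 in Adult-Liver. Its order of conditions was that of *Ccnb1*, whereas *Birc5* did not separate the organoids from adult tissue. *Birc5* was at 78.1 and 76.3 CPM in 2D-iHepSC, 68.2 and 68.6 in 2D-iHepSCiEC, 12.9 and 14.3 in 3D-iHA, and 13.6 and 12.9 in 3D-iHEA. It was at 39.6 and 37.7 CPM in Fib, 216 and 230 in Fetal-Liver and 14.7 and 12.7 in Adult-Liver. Within the complex the decreases in 3D-iHA were unequal: -2.53 for *Aurkb*, -2.46 for *Birc5* and -1.79 for *Incenp*, with standard errors of 0.06 to 0.07.

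The spindle checkpoint genes *Bub1*, *Bub1b*, *Bub3*, *Mad2l1* and *Ttk* had the widest range of decreases, from -2.72 for the kinase *Bub1* to -0.48 for *Bub3* in 3D-iHA. *Bub1b*, which encodes BubR1, was at 73.7 and 72.8 CPM in 2D-iHepSC, 74.4 and 72.6 in 2D-iHepSCiEC, 12.05 and 14.2 in 3D-iHA, and 12.4 and 12.5 in 3D-iHEA. It was at 40.3 and 39.4 CPM in Fib, 165 and 159 in Fetal-Liver and 4.32 and 3.74 in Adult-Liver. *Bub3*, a WD-repeat protein that carries Bub1 and BubR1 to kinetochores, changed far less than its partners. It was at 124 and 123 CPM in 2D-iHepSC, 118 and 109 in 2D-iHepSCiEC, 86.4 and 85.0 in 3D-iHA, and 86.1 and 78.4 in 3D-iHEA. It was at 68.2 and 69.7 CPM in Fib, 142 and 143 in Fetal-Liver and 54.1 and 50.9 in Adult-Liver. Its whole range over the conditions was thus narrow, and its rank among the 40 genes per kilobase of exon moved from the 24th place in 2D-iHepSC, at 17.6 CPM per kb, to the top in 3D-iHA, at 12.2 CPM per kb.

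All 6 *Kif* genes of the list fell in 3D, by -2.97 to -1.79 in 3D-iHA. *Kif11*, the motor Eg5 that pushes spindle poles apart, was at 68.3 and 64.7 CPM in 2D-iHepSC, 64.2 and 64.2 in 2D-iHepSCiEC, 18.2 and 19.3 in 3D-iHA, and 18.2 and 16.9 in 3D-iHEA. It was at 68.1 and 63.1 CPM in Fib, 256 and 233 in Fetal-Liver and 5.30 and 5.32 in Adult-Liver. The 2D and Fib libraries of *Kif11* overlapped, which no other of the 40 genes did. *Kif20a*, the motor MKLP2 of the central spindle, was at 86.8 and 82.0 CPM in 2D-iHepSC, 73.0 and 75.4 in 2D-iHepSCiEC, 12.7 and 13.9 in 3D-iHA, and 13.7 and 11.9 in 3D-iHEA. It was at 52.0 and 50.9 CPM in Fib, 109 and 96.1 in Fetal-Liver and 8.11 and 7.73 in Adult-Liver. Its libraries kept the order of *Ccnb1*, and 29.3% of its exonic bases overlap *Cdc23* on the opposite strand. *Kif23*, *Kif2c* and *Kif4*, which encode MKLP1, MCAK and a chromosome-bound kinesin, had log2 fold changes of -2.90, -1.96 and -2.28 in 3D-iHA.

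The centromere and kinetochore genes *Cenpa*, *Cenpe*, *Cenpf*, *Ndc80* and *Nuf2* fell by -3.05 to -2.21 in 3D-iHA. *Cenpa* was at 86.3 and 88.9 CPM in 2D-iHepSC, 82.4 and 79.9 in 2D-iHepSCiEC, 10.1 and 10.4 in 3D-iHA, and 11.6 and 10.1 in 3D-iHEA. It was at 34.9 and 34.9 CPM in Fib, 159 and 154 in Fetal-Liver and 12.04 and 14.4 in Adult-Liver, so the 3D libraries were the lowest ones of this gene with TMM scaling. *Ndc80*, the outer kinetochore protein that grips microtubules, was at 30.7 and 29.6 CPM in 2D-iHepSC, 27.9 and 25.8 in 2D-iHepSCiEC, 6.24 and 6.39 in 3D-iHA, and 6.63 and 6.09 in 3D-iHEA. It was at 19.7 and 19.6 CPM in Fib, 50.7 and 49.5 in Fetal-Liver and 1.44 and 1.52 in Adult-Liver. With *Cdc25c* and *Nuf2* it was among the 3 lowest genes per kilobase in 2D-iHepSC and 3D-iHA.

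The 6 spindle protein genes fell by -3.21 to -2.27 in 3D-iHA. *Tpx2*, which nucleates spindle microtubules and activates Aurora A, was at 175 and 163 CPM in 2D-iHepSC, 154 and 153 in 2D-iHepSCiEC, 26.4 and 29.5 in 3D-iHA, and 25.6 and 24.1 in 3D-iHEA. It was at 71.9 and 68.9 CPM in Fib, 264 and 248 in Fetal-Liver and 8.77 and 10.1 in Adult-Liver. The cytokinesis genes are *Anln*, which encodes the ring scaffold anillin, *Ect2*, an exchange factor for RhoA, and *Racgap1*, its partner at the central spindle. *Anln* was at 294 and 272 CPM in 2D-iHepSC, 282 and 281 in 2D-iHepSCiEC, 44.1 and 44.6 in 3D-iHA, and 36.8 and 36.9 in 3D-iHEA. It was at 78.7 and 76.6 CPM in Fib, 104 and 93.3 in Fetal-Liver and 4.65 and 4.31 in Adult-Liver. Its 2D libraries were far above those of fetal tissue, a pattern that *Ckap2* and *Ect2* shared, and its decrease was -2.63 in 3D-iHA and -2.90 in 3D-iHEA.

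*Top2a*, the topoisomerase that untangles chromosomes, and *Mki67*, which coats mitotic chromosomes and is used to stain cycling cells, had the highest CPM values of the 40 genes in 2D culture, Fib and Fetal-Liver. *Top2a* was at 463 and 432 CPM in 2D-iHepSC, 442 and 441 in 2D-iHepSCiEC, 88.4 and 97.9 in 3D-iHA, and 89.6 and 82.8 in 3D-iHEA. It was at 283 and 270 CPM in Fib, 771 and 734 in Fetal-Liver and 17.6 and 13.7 in Adult-Liver. *Mki67* was at 368 and 330 CPM in 2D-iHepSC, 314 and 318 in 2D-iHepSCiEC, 64.2 and 75.0 in 3D-iHA, and 65.6 and 59.2 in 3D-iHEA. It was at 173 and 168 CPM in Fib, 2052 and 1719 in Fetal-Liver and 42.5 and 47.0 in Adult-Liver. Both genes fell in 3D-iHA, *Top2a* 4.66-fold and *Mki67* 4.87-fold, and the 2 fetal libraries of *Mki67* were far above all others. Per kilobase *Mki67* ranked highest in Fetal-Liver, at 187 CPM per kb, and in the 8th place in 2D-iHepSC, at 34.7 CPM per kb.

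**Figure D4:**
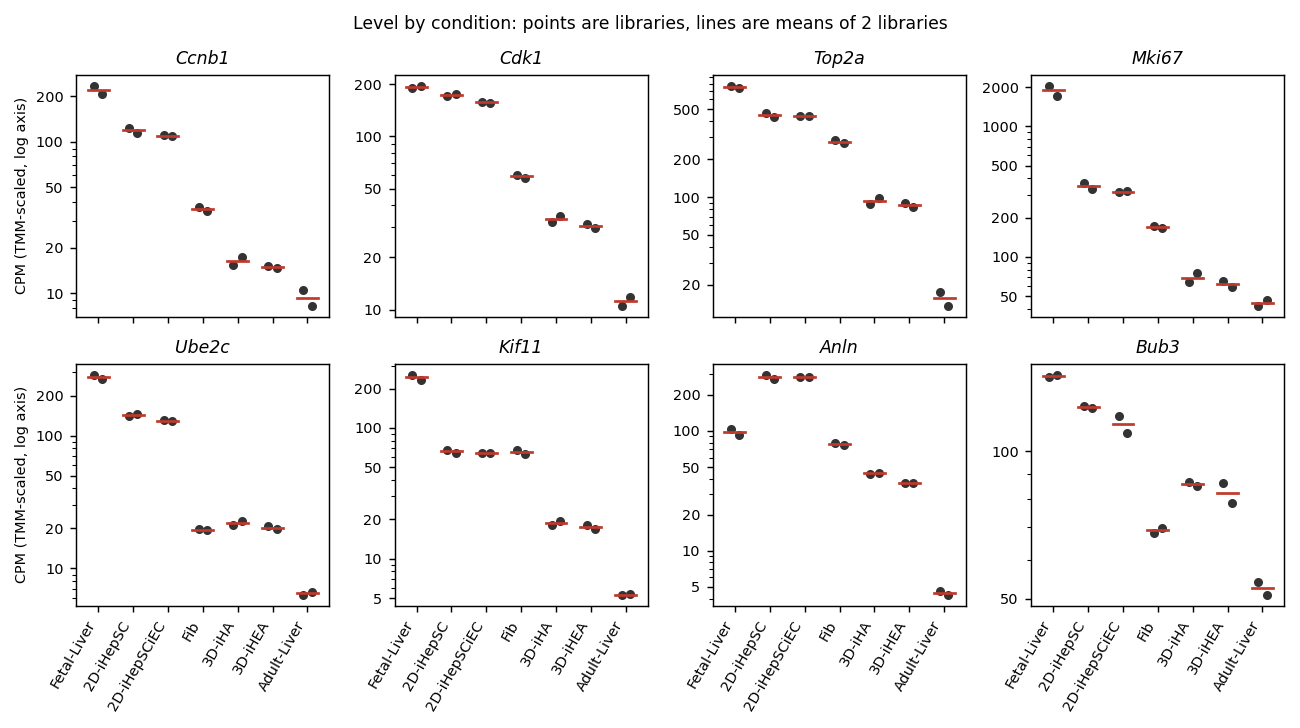
CPM scaled by TMM, on log axes, of 8 of the 40 genes in the 7 conditions, with points for libraries and red lines for the mean of 2 libraries. Ccnb1, Cdk1, Top2a and Mki67 descend from Fetal-Liver through 2D, Fib and 3D to Adult-Liver, whereas Ube2c is as low in Fib as in 3D, Kif11 as high in Fib as in 2D, Anln highest in 2D, and Bub3 varies within a narrow range.

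Whether iECs changed the mitotic genes was asked within 2D and within 3D culture. In 2D-iHepSCiEC against 2D-iHepSC none of the 40 genes was called by edgeR's quasi-likelihood test or by DESeq2, against 8.17% of all tested genes, and 9 had an unadjusted p under 0.05 (8 lower, 1 higher). The 40 log2 fold changes ran from -0.18 (*Hmmr*) to 0.11 (*Foxm1*), with a median of -0.08 against 0.00 over all tested genes, and their 95% confidence intervals lay within -0.34 and 0.22. Among all called genes 52.1% were higher, and 64.6% on library size alone, where the 40 genes were again not called. *Nusap1* and *Kif20a*, both at -0.16, were next to *Hmmr* at the lower end, and *Bub1b* at 0.03 and *Ccnb2* at 0.02 were next to *Foxm1* at the upper end. The sign was negative for 32 of the 40 genes, and both co-culture libraries lay below both other libraries for 28 of them, against 32.6% of all tested genes. In 3D-iHEA against 3D-iHA only *Anln* was called, lower by -0.25 on the log2 scale with an adjusted p of 0.0434 and a standard error of 0.06. Of all tested genes 1.07% were called lower and 2.26% in either direction. This call was lost when any library other than the unnumbered one of 3D-iHEA was left out, with adjusted p values of 0.0638 to 0.26. The other 39 genes had log2 fold changes between -0.28 (*Ttk*) and 0.10 (*Cenpa*) and intervals within -0.54 and 0.28. *Kif18b* at -0.22 followed *Ttk* and *Anln* at the lower end, and *Aurka* and *Mad2l1*, both at 0.06, followed *Cenpa* at the upper end. The median of the 40 genes was -0.11 against -0.01 over all tested genes. Both 3D-iHEA libraries lay below both 3D-iHA libraries for 18 of the 40 genes, against 25.9% of all tested genes.

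The difference between the effect of iECs in 3D and that in 2D was tested as an interaction. None of the 40 genes was called by edgeR's quasi-likelihood test or by DESeq2, against 3.14% of all tested genes, and 1 had an unadjusted p under 0.05. That gene was *Anln*, at a log2 difference of -0.27 with a 95% interval of -0.43 to -0.10 and an adjusted p of 0.0874. The differences ran from -0.30 (*Ttk*) to 0.18 (*Cenpa*, *Aurka* and *Mad2l1*), with *Kif18b* at -0.18, a median of -0.01, and intervals within -0.61 and 0.46.

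The 2D hepatic cells were compared with the fibroblasts from which such cells are made. Of the 40 genes, 39 were higher in 2D-iHepSC than in Fib and none was lower, against 45.7% of all tested genes called higher and 83.9% called in either direction. Both 2D-iHepSC libraries lay above both Fib libraries for 39 genes, against 52.2% of all tested genes. The median log2 fold change was 1.13 against 0.11 over all tested genes, and a median of 1.04 on DESeq2's size factors stood against 0.02. *Ube2c* rose most, by 2.79 (6.90-fold), followed by *Hmmr* at 2.03 and *Ect2* at 1.95. The smallest increases were those of *Nuf2* at 0.43 and *Racgap1* at 0.52. *Kif11* was not called, at -0.05 with a 95% interval of -0.18 to 0.08 and an adjusted p of 0.436. It was at 0.02 without a filter on low counts and was called lower on DESeq2's size factors, with the stricter filter on low counts, in a fit of the 4 libraries alone, and without either Adult-Liver library or without Fetal-Liver library 1. By role, the medians ran from 0.73 for centromere and kinetochore genes to 2.26 for the genes of anaphase-promoting complex activity.

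The comparison of 3D-iHA with Fib was added after the values had been seen, and it shares libraries with the comparisons above. Of the 40 genes, 38 were lower in 3D-iHA than in Fib, against 40.1% of all tested genes called lower and 43.3% called higher, and the median was -1.35 against 0.04 over all tested genes. *Nuf2* at -2.12, *Kif20a* at -2.02 and *Kif11* at -1.88 were lowest. *Bub3* was higher, at 0.24, *Ube2c* was not called, at 0.10 with an interval of -0.04 to 0.23 and an adjusted p of 0.158, and *Ttk*, the checkpoint kinase Mps1, was lower by a small change of -0.27. Scaled by library size alone, *Ube2c* was also called higher.

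Whole tissue from before birth was compared with adult tissue. All 40 genes were higher in Fetal-Liver than in Adult-Liver, against 43.8% of all tested genes called higher and 83.7% called in either direction, with a median log2 fold change of 4.48 (22.3-fold) against 0.10 over all tested genes. *Kif18b* at 5.83, *Top2a* at 5.56 and *Bub1* at 5.51 had the largest differences, and *Bub3* at 1.41, *Ckap2* at 2.80 and *Ect2* at 2.87 the smallest. The 12 erythroid markers summed to 36441 to 38046 CPM in Fetal-Liver, with all 12 above 3 counts, to 602 to 642 CPM in Adult-Liver, with 11 above 3 counts and *Hbb-y* at 0, and to at most 4.69 CPM in any other library. The hepatocyte markers summed to 11201 to 14205 CPM in Fetal-Liver and 553930 to 585601 CPM in Adult-Liver. The part of these cell types in the fetal levels was not tested. The TMM factors were 0.445 and 0.451 in Adult-Liver against 1.09 to 1.22 elsewhere, so values of adult tissue depend on the scaling. On library size alone the median of the 40 genes was 5.90 while that of all tested genes was 1.52, and relative to all tested genes it was 4.38 under both scalings. The relative value could hardly differ, because a change of scaling shifts all genes nearly alike. Of all called genes 52.3% were higher in Fetal-Liver with TMM and 82.3% on library size alone.

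Against fetal tissue, 2D-iHepSC had 33 of the 40 genes lower and 4 higher, against 43.3% of all tested genes called lower and 42.0% called higher, with a median of -0.68 against -0.02 over all tested genes. *Mki67* at -2.54, *Kif11* at -1.98 and *Ccna2* at -1.69 were furthest below. *Anln* at 1.42, *Ckap2* at 1.37, *Ect2* at 0.81 and *Kif23* at 0.16 were higher than in fetal tissue, and the value of *Kif23* was -0.01 with a stricter filter on low counts. *Foxm1*, *Bub1* and *Hmmr* were not called, at 0.11, -0.02 and -0.04, with intervals within -0.18 and 0.23 and adjusted p values of 0.0844, 0.731 and 0.515. The log2 ratio of CPM values is 0.10 higher than the fitted one in this comparison, which puts the CPM means of *Bub1* and *Hmmr* in 2D-iHepSC above those of fetal tissue, and without a filter on low counts the fitted values of *Bub1* and *Hmmr* were 0.08 and 0.06. Fib had all 40 genes lower than Fetal-Liver, against 44.4% of all tested genes, with a median of -1.82 against -0.05 over all tested genes and a range from -3.85 (*Ube2c*) over *Mki67* (-3.50) and *Aurka* (-3.12) to *Foxm1* (-0.78), *Anln* (-0.38) and *Ckap2* (-0.29). 3D-iHA also had all 40 lower, against 43.2% of all tested genes, with a median of -3.15, an 8.91-fold lower level, against -0.01 over all tested genes. *Mki67* at -4.86, *Ccna2* at -4.31 and *Birc5* at -4.14 were lowest there, and *Ect2* at -1.63, *Anln* at -1.25 and *Bub3* at -0.84 were nearest to fetal tissue.

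Against adult tissue, 38 of the 40 genes were higher in 3D-iHA and 1 was lower, against 45.7% of all tested genes called higher and 39.2% called lower. The median log2 fold change was 1.35, or 1.22 relative to the median of 0.13 over all tested genes, and on library size alone the 2 medians were 2.78 and 1.56. Of all called genes 53.9% were higher with TMM and 80.2% on library size alone. *Anln* at 3.18, *Bub1* at 2.72 and *Kif23* at 2.49 had the largest differences. *Cenpa* was lower, at -0.50 with TMM, but 0.93 on library size alone. *Birc5* was not called, at -0.14 with an interval of -0.34 to 0.05 and an adjusted p of 0.156, and was at 1.29 on library size alone. Relative to the median of all tested genes, *Cenpa* stood at -0.63 and *Birc5* at -0.27 with either scaling. These relative values could hardly differ, because a change of scaling shifts all genes of a comparison nearly alike. *Aurka* at 0.26 was the lowest of the genes called higher.

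Across the 5 groups the order of libraries from Fetal-Liver through 2D, Fib and 3D to Adult-Liver held without overlap for 27 of the 40 genes, or 67.5%, against 1.35% of all tested genes. This order is that of the median levels of the same 40 genes, so the count describes these genes and is no test of them. The 13 exceptions differed in where they left this order. In *Foxm1*, *Bub1*, *Kif23*, *Hmmr*, *Ckap2*, *Ckap2l*, *Anln* and *Ect2* the fetal libraries were not all above the 2D libraries, and in 6 of these 8 (all but *Hmmr* and *Ckap2l*) all 4 2D libraries were the highest. *Kif11* did not separate 2D from Fib, *Ube2c* and *Bub3* did not have Fib above 3D, and *Birc5* and *Cenpa* did not have 3D above Adult-Liver. With the TMM factors of the fit over all libraries the order again held for 27 of the 40 genes, against 1.27% of all tested genes, but *Ckap2l* joined these genes, *Cdc20* left them because 3D and Adult-Liver overlapped, and the 2D libraries of *Bub1* were not all above the fetal ones. On library size alone the levels of adult tissue were lower still, at a median of 2.82 CPM, and all 40 genes were called higher in 3D-iHA than in Adult-Liver.

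The other genes of the cell cycle were followed through lists of related genes. Of 41 further mitotic genes, all were lower in 3D-iHA than in 2D-iHepSC, with a median of -2.18 and values from -3.05 for *Depdc1a* to -1.29 for *Dsn1*, and all 41 were lower in 3D-iHEA than in 2D-iHepSCiEC, with a median of -2.23. In 3D-iHA the genes of G1/S and DNA replication had 32 of 37 lower and 1 higher, with a median of -0.79, against 35.3% of all tested genes called lower and 36.9% called higher, *Ccnd1* (cyclin D1) lowest at -2.51 and *Ccnd3* (cyclin D3) higher at 0.81. Condensin and cohesin genes, which fold and hold chromosomes, had 10 of 13 lower and 1 higher with a median of -0.63, from *Ncapg* at -2.40 to *Stag1* at 0.18. A list of anaphase-promoting complex genes holds its subunits and also the activator *Fzr1* and the ubiquitin-conjugating enzyme *Ube2s*. It had 10 of 16 lower and 2 higher with a median of -0.20, from *Anapc15* at -0.78 to *Anapc16* at 0.68. The activator *Cdc20*, 1 of the 40 genes, was at -2.55. Among the genes of MuvB, DREAM and the retinoblastoma family 6 of 12 were lower and 3 higher, with *Mybl2* (B-Myb) at -2.20 and *Lin37* at 0.55. Inhibitors of cyclin-dependent kinases and genes of cell cycle arrest had 9 of 13 lower and 3 higher, from *Cdkn2a* at -4.16 to *Cdkn1c* at 1.43. In 3D-iHEA against 2D-iHepSCiEC, where 34.9% of all tested genes were called lower and 36.0% higher, 33 of the G1/S genes were lower and 1 higher, from *Ccnd1* at -2.72 to *Ccnd3* at 0.62. Condensin and cohesin had 11 lower and 1 higher, from *Ncapg* at -2.46 to *Stag1* at 0.38. The list of anaphase-promoting complex genes had 10 lower and 2 higher, from *Cdc23* at -0.94 to *Anapc16* at 0.72. MuvB had 7 lower and 3 higher, from *Mybl2* at -1.88 to *Lin52* at 0.50, and the inhibitors 9 lower and 2 higher, from *Cdkn2a* at -2.96 to *Btg2* at 1.28.

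**Figure D5:**
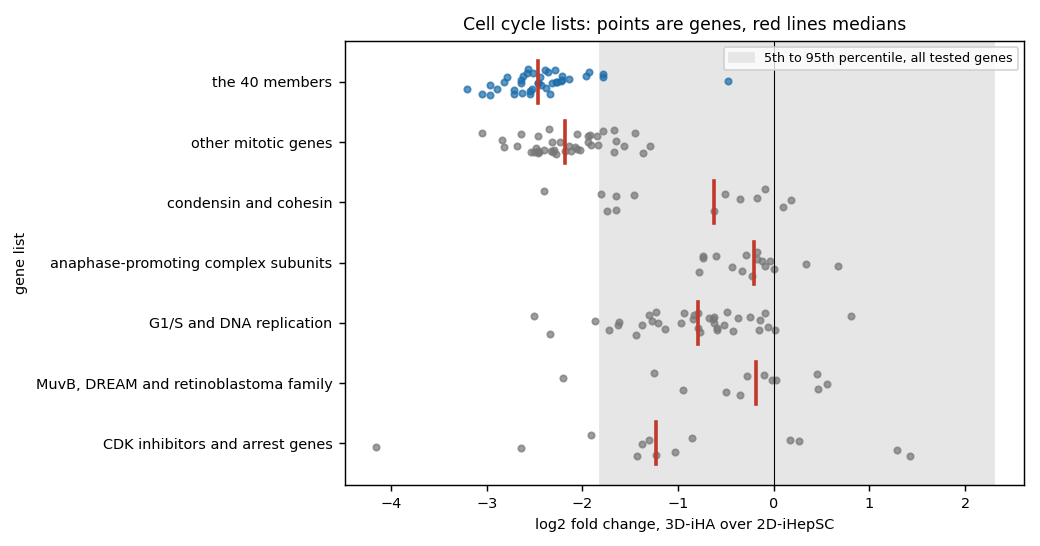
Log2 fold change in 3D-iHA against 2D-iHepSC for the 40 genes and for 6 other lists of cell cycle genes, with a point for each gene, a red line for the median of a list, and grey from the 5th to the 95th percentile of all tested genes. The 40 genes and the other mitotic genes lie mostly left of the grey band, at medians of -2.47 and -2.18, and the medians of the other lists lie inside it.

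In 2D-iHepSC against Fib, where 45.7% of all tested genes were called higher and 38.2% lower, 36 of the 41 further mitotic genes were higher, with a median of 1.00, while the G1/S genes had 18 of 37 higher and 13 lower and a median of 0.13, from *Ccne1* at -2.03 to *Cdk6* at 4.17, counts close to the shares over all tested genes. Condensin and cohesin had 9 of 13 higher and 3 lower. The list of anaphase-promoting complex genes, with *Fzr1* and *Ube2s*, had 5 of 16 higher and 9 lower. MuvB had 6 of 12 higher and 3 lower, and the inhibitors 7 of 13 higher and 6 lower, from *Cdkn2a* at -4.47 to *Gadd45a* at 4.40. In Fetal-Liver against Adult-Liver, where 43.8% of all tested genes were called higher, 40 of the 41 mitotic genes were higher and *Pttg1* (securin) was lower at -1.39, and 35 of 37 G1/S genes were higher with a median of 3.34, from *Ccnd1* at -0.92 to *Cdc6* at 6.90. Co-culture called none of the 41 mitotic genes, against 8.17% of all tested genes in 2D and 2.26% in 3D. Among the G1/S genes 2 of 37 were called lower in 2D, with *E2f2* at -0.69, near the share of 3.92% of all tested genes called lower, and none in 3D.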

How the data were processed

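RNA was measured by paired-end Illumina sequencing. Per the processing notes of the samples, the authors trimmed reads with Trimmomatic 0.36, a step that the methods of the study do not name. They mapped reads to GRCm38/mm10 with HISAT2, and obtained gene values with Cufflinks and HTSeq. The deposited table holds raw read counts per gene, 1 column per library, for 28022 genes. The second 3D-iHEA column has a name whose numbers conflict and was tied to its group only. A gene was fitted when its log2(count + 1) averaged 3 or more over the libraries, with TMM scaling, by edgeR's quasi-likelihood test (edgeR 4.0.16, R 4.3.3), culture contrasts over 8 libraries and contrasts with Fib or tissue over 14. P-values were adjusted by Benjamini-Hochberg over all tested genes at a threshold of 0.05, and confidence intervals are 95%. DESeq2 1.42.0, other filters and scalings, a test against a log2 fold change of 0.5, other sets of libraries and leaving out each library were alternatives, and the code was tested on simulated data.

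The 40 genes and the other lists were chosen with earlier results of these data known. All 40 genes were counted by role, 18 were given in every library, and in each comparison the 3 largest, the 3 smallest and every gene against the majority were named. For the other lists the counts and the genes with the largest and smallest changes were given in full for 3D-iHA against 2D-iHepSC and in part for other comparisons, and 1 gene is not reported here. TMM factors of printed CPM used all genes, those of the fits the tested genes. The order of the groups is that of the levels of the same 40 genes, and on the scale of the fit it was computed after the values had been seen. Exonic lengths and overlaps came from the GENCODE annotation of GRCm38, and promoters from RefSeq for GRCm38.p6, where 17 of 36 promoter starts equalled a gene boundary in the RefSeq gene table. Motifs were searched as exact letters on both strands. A CPM floor of 3 counts marked detection of cell type markers. Deviations of same-numbered libraries were correlated over 15 pairs of conditions and gave values between -0.17 and 0.166, with 1 pair over 0.1, so the numbers were not used to pair libraries. Strand and multimapper handling and the versions of the other tools are not given in the sources used here.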

Additional observations from a re-analysis of the deposited data

How the results depend on the processing

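Of 468 recomputed counts of called genes, 437 stayed within 1.5 times the reported count. These include pairs of 0 against 0, such as the higher genes in every comparison between cultures. The counts of 40 lower genes in 3D against 2D culture, in Fib and in 3D-iHA against fetal tissue, and the 40 higher genes in fetal against adult tissue, held when any library was left out, and the test against a log2 fold change of 0.5 lost only *Bub3* from each 3D against 2D count. In 2D-iHepSCiEC against 2D-iHepSC the count of lower genes was 1 without a filter on low counts and 1 with the replicate block in a fit that also left out the unnumbered 3D-iHEA library, and 0 to 3 with a library left out, with 3 reached without either 3D-iHEA library. In 3D-iHEA against 3D-iHA it was 0 on library size alone, 0 in a fit of all 14 libraries and 0 against a log2 fold change of 0.5, and 0 to 1 with a library left out. In the interaction it was 1 without a filter and 0 to 1 with a library left out, with 1 reached without the unnumbered 3D-iHEA library. In 2D-iHepSC against Fib it was 1 with a filter at a mean log2 of 5, 1 on DESeq2's size factors and 1 in a fit of the 4 libraries, and 0 to 1 with a library left out. In 3D-iHA against Adult-Liver it was 2 with the filter at 5, 2 on DESeq2's size factors and 2 with DESeq2's Wald test, but 0 on library size alone and 0 against a log2 fold change of 0.5. With a library left out it was 1 to 2, with 2 reached without Adult-Liver library 2 or Fetal-Liver library 1. In 3D-iHA against Fib the count of higher genes was 2 on library size alone and 0 against a log2 fold change of 0.5.

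Among values called in the reported fit or in the alternative, 3 changed sign: *Kif23* in 2D-iHepSC against Fetal-Liver was -0.012 with the filter at 5, and *Birc5* and *Cenpa* in 3D-iHA against Adult-Liver were 1.29 and 0.93 on library size alone. Values not called lay on either side of 0 under at least 1 alternative for 9 of the 40 genes in 2D co-culture, 14 in 3D co-culture, 20 in the interaction, *Kif11* against Fib, and *Foxm1*, *Bub1* and *Hmmr* in 2D-iHepSC against Fetal-Liver. The cause of the other changes was not tested. The library numbers shared by conditions did not pair the libraries, and the block was fitted on the numbered libraries alone. Against the fit on these same libraries, the block took the count of lower genes from 3 to 1 in 2D co-culture and from 1 to 0 in the interaction. It took 2D-iHepSC against Fetal-Liver from 4 higher and 33 lower genes to 5 and 32, and the counts of the other 9 comparisons were equal. With 2 libraries per condition, small shifts of genes near the limit of detection in adult tissue (16 counts for the lowest) were measured least precisely.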
